A study of Mus musculus with 70 samples.

Results

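The T cell receptor complex, its coreceptors and the proteins closest to them were followed through 10 genes: the CD3 chains Cd3e, Cd3d and Cd3g, the zeta chain Cd247, the receptor constant region Trac, the coreceptors Cd8a, Cd8b1 and Cd4, the kinase Lck and the transcription factor Tcf7. They were chosen by symbol from the count tables of sorted CD45+ cells, in which they are 10 of 55487 named lines on day 3 and again on day 7. All 10 had enough counts to be tested on each day. The 34 CD45+ libraries analyzed here belong to a set of 70 that also holds CD45- cells, all sorted by flow cytometry from tumors of B16F10, a transplanted mouse melanoma line, in both flanks of C57BL/6 mice. CD45, encoded by Ptprc, marks leukocytes. Histotripsy is a focused ultrasound method that breaks up tissue mechanically, and here it ablated part of the tumor on a single side. Control tumors came from mice given a sham procedure, histotripsy-treated tumors were those ablated, and histotripsy-abscopal tumors were the untreated tumors on the opposite flank of ablated mice. On day 3 there were 4 control, 6 treated and 7 abscopal CD45+ libraries, and on day 7 there were 10, 3 and 4. The young adult mice were of both sexes and assigned without randomization, and the labels give no sex, mouse or batch for a library, so these cannot be told apart from the groups. Both tumors of a mouse may be among the libraries. Whether libraries of a group came from separate mice is not labelled, so p-values measure the spread between these libraries.

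The antigen receptor of most T cells is a pair of alpha and beta chains, of which Trac encodes the constant part of alpha. It reaches the surface only together with the CD3 epsilon, delta and gamma chains and the zeta chain, whose tyrosine motifs carry the signal inward. CD8, usually a dimer of alpha and beta chains, and CD4 bind class I and class II major histocompatibility molecules and bring Lck to the receptor, where it phosphorylates those motifs. TCF-1, the product of Tcf7, keeps T cells in naive, memory or stem-like states. In tumors these genes together are read as the mark of infiltrating T cells, but not each of them is confined to T cells. For example, CD4 and TCF-1 are also made by some dendritic and other leukocytes.

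The CD3 genes lie together on mouse chromosome 9 of the GRCm38 build, by the GENCODE annotation. Cd3g, on the minus strand at chr9:44969572-44980431, and Cd3d, on the plus strand at chr9:44981786-44987339, start 1355 bases apart and are transcribed away from each other, and Cd3e follows at chr9:44998740-45009627 on the minus strand. Cd8b1 at chr6:71322788-71337494 and Cd8a at chr6:71373427-71379173 are on the plus strand with 35933 bases between them, and Cd4 is on the same chromosome at chr6:124864692-124888221 on the minus strand. The others are Cd247 at chr1:165788681-165877277, Trac at chr14:54220521-54224206, Lck at chr4:129548344-129573641 and Tcf7 at chr11:52252371-52283014. Annotated exons of other genes overlap exons of Cd3e (the antisense gene Gm48719), of Cd247 (Gm16565 on its strand and Pou2f1 on the opposite strand) and of Lck (the microRNA gene Mir8119). The strand setting of the counting is not given in the sources used here, so their counts may hold reads of these neighbours.

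The 250 bases before the start are shown for the 3 genes among those lower in treated tumors on day 3 that RefSeq's promoter table (GRCm38.p6) holds, and for Cd3g, which shares its upstream interval with Cd3d. Of the 10 genes, 7 were matched in that table. Capitals mark any match, on either strand, to the motifs of transcription factors of T cells that are spelled out after the sequences. The windows are chr6:71373177-71373426 for Cd8a, chr1:165788431-165788680 for Cd247 and chr9:44981536-44981785 for Cd3d, all on the plus strand, and chr9:44980432-44980681 on the minus strand for Cd3g.
Cd8a: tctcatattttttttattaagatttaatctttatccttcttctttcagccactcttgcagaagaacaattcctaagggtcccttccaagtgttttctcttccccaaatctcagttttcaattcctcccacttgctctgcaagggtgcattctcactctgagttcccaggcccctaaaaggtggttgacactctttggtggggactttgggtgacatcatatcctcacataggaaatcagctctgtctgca
Cd247: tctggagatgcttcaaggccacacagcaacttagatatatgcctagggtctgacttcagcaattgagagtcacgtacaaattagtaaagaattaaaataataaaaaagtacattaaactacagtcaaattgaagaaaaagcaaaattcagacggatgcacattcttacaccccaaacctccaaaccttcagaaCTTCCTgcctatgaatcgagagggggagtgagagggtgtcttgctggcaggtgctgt
Cd3d: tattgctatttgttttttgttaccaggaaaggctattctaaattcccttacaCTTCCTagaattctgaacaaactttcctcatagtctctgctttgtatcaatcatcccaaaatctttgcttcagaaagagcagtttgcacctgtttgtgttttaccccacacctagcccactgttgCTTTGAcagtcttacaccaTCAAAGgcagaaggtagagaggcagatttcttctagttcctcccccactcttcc
Cd3g: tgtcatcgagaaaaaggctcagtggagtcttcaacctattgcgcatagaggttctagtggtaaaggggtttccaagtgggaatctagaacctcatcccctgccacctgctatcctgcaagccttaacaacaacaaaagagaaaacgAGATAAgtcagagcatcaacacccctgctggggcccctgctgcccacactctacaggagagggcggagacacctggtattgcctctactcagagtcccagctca
The core of the ETS motif, searched as AGGAAG, was found upstream of 4 of the 7 genes (Cd247, Cd3d, Cd3e and Lck) and in 29.5% of 32851 mouse windows of the same length. The TCF motif, as CTTTGA, was found on each strand of the Cd3d window and in 13.8% of all windows. Among these genes, the RUNX motif, as TGTGGT, was found only for Lck and in 14.0% of all windows. The GATA motif, as AGATAA, was found only for Cd3g and in 9.99% of all windows. The E-box, as CAGCTG, was found only for Tcf7 and in 13.0% of all windows. That match follows a start codon in a reading frame without a stop up to the end of the window. It may therefore be coding sequence, although no exon is annotated in that window. The Cd3e window and a further window each of Lck and Tcf7 overlap annotated exons of the same gene. No marked match overlapped another. No match was present in the Cd8a window.

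The sort and the depth were checked on the counts. Ptprc had 929 to 2916 counts in the CD45+ libraries and 0 to 3 in the CD45- libraries, and 8 of the 10 genes had at most 3 counts in any CD45- library. Lck had 2 to 18 counts there and Tcf7 2 to 37. CD45+ depth was 887798 to 2824959 counts, with overlapping ranges in the groups. Values below are counts scaled with TMM factors to a library of 1000000 counts (CPM), and a gene is said to have passed the test where its Benjamini-Hochberg adjusted p in edgeR's quasi-likelihood test, over all genes of the day, was under 0.05. In bulk RNA of sorted leukocytes, fewer T cells among them and less RNA per T cell cannot be told apart. Nor can a change in other leukocytes that make a gene be told apart from these.

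**Figure D1:**
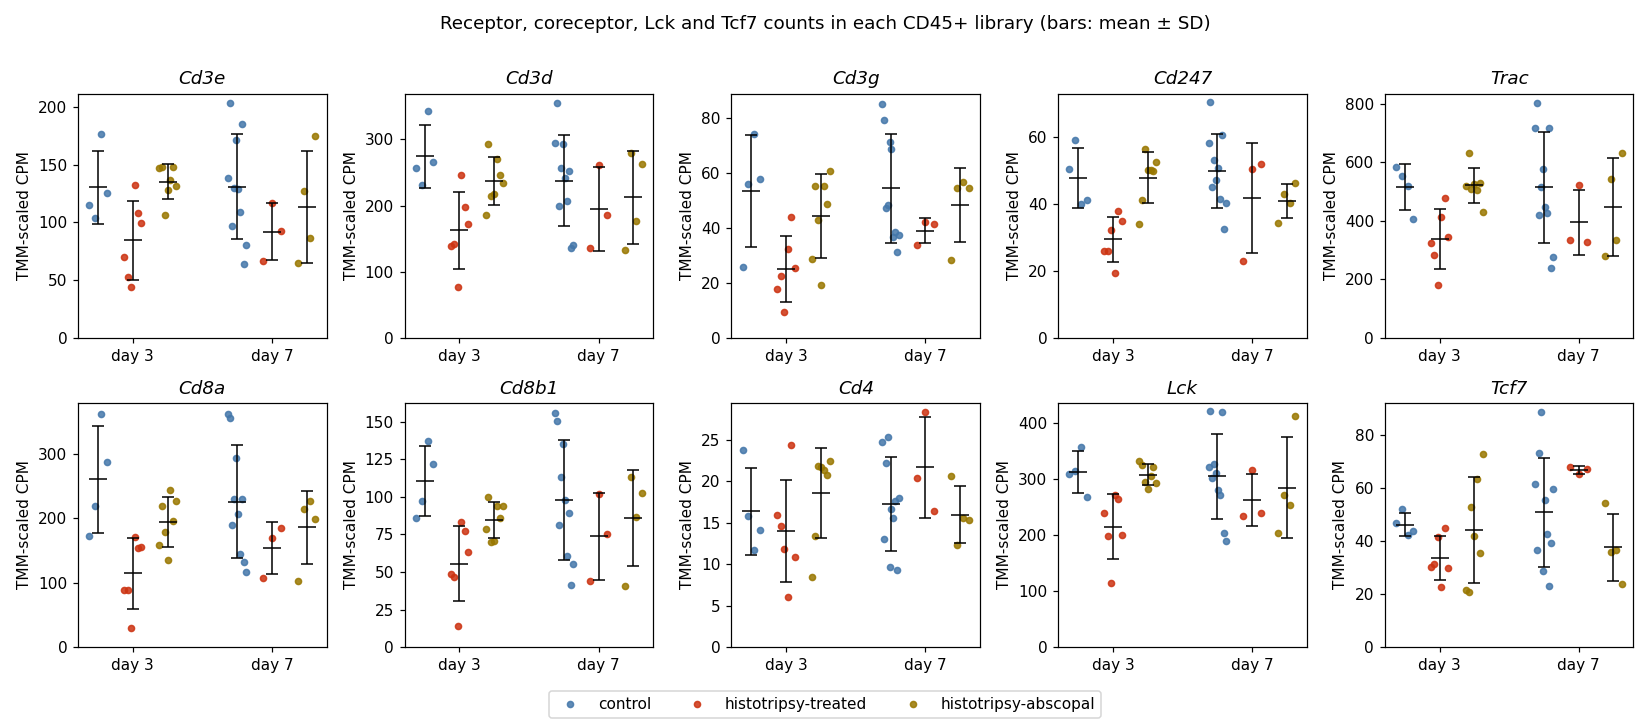
TMM-scaled CPM of the 10 genes in each CD45+ library, by day and group, with bars for mean ± SD. On day 3 the treated libraries lie below all 4 control libraries for Cd8a, Cd8b1 and Cd247, and on day 7 the 3 treated libraries lie together for Tcf7, between 65.1 and 68.0 CPM.

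On day 3, both CD8 genes and the receptor chain genes Cd247 and Cd3d fell in treated against control tumors, to between 44.0% and 62.0% of the control level. In a fit of the treated and control libraries alone, 0 of the 10 genes passed. All 10 genes had a log2 fold change below 0, as 50.8% of all 10264 genes tested did. Their median was -0.65, against -0.01 over all genes. Thus 4 of 10 passed the test in the lower direction, where 1.59% of all genes did. Cd3e, Cd3g, Trac, Lck, Cd4 and Tcf7 did not pass.

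Among the coreceptors, Cd8a had 173, 219, 363 and 288 CPM in the 4 control libraries. In the 6 treated libraries it ranged from 29.9 to 170 CPM with a median of 121. Every treated library was therefore below every control library, and the log2 fold change was -1.19 (SE 0.31; edgeR adjusted p = 0.0213). Cd8b1, the beta chain of the CD8 dimer, had 86.0, 97.4, 137 and 122 CPM in control libraries against 14.2 to 83.2 CPM (median 56.0) in treated libraries. These groups did not overlap either, with a log2 fold change of -0.99 (SE 0.27; edgeR adjusted p = 0.0284). Cd4 had 23.8, 15.8, 11.7 and 14.2 CPM in control libraries and 6.04 to 24.4 CPM (median 13.2) in treated libraries. Its groups overlapped, and its log2 fold change of -0.19 had a 95% interval from -0.81 to 0.44 (edgeR adjusted p = 0.769), on 9 to 40 counts per library.

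Of the receptor complex, the zeta chain gene Cd247 was lower without overlap. It had 50.3, 59.1, 39.9 and 41.1 CPM in control libraries and 19.4 to 37.8 CPM (median 29.1) in treated libraries, a log2 fold change of -0.69 (SE 0.19; edgeR adjusted p = 0.0275). Cd3d had 256, 232, 343 and 266 CPM in control libraries against 77.1 to 246 CPM (median 157) in treated libraries. A single treated library, replicate 4, was above the lowest control library, and the log2 fold change was -0.75 (SE 0.22; edgeR adjusted p = 0.0374). Groups without overlap in the lower direction made up 2.39% of all genes tested, and 3 of the 10 genes (Cd8a, Cd8b1 and Cd247).

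The other chains of the complex had lower means that did not pass. Cd3g had 25.6, 56.1, 74.0 and 57.9 CPM in control libraries against 9.44 to 43.9 CPM (median 23.9) in treated libraries, a log2 fold change of -1.08 (SE 0.34; edgeR adjusted p = 0.0514). Control replicate 1 lay inside the treated range. For Trac the log2 fold change was -0.61 (edgeR adjusted p = 0.0580), from a mean of 516 ± 78.7 CPM (SD, n = 4) to 337 ± 103 CPM (SD, n = 6). Cd3e had a mean of 130 ± 31.9 CPM in control and 84.5 ± 34.3 CPM in treated libraries, with a log2 fold change of -0.62 (edgeR adjusted p = 0.106). Of the 6 treated libraries, 4 lay below the lowest control library for each of Cd3g, Trac and Cd3e.

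Lck, the kinase that the coreceptors carry, had 309, 315, 357 and 267 CPM in control libraries and 115 to 271 CPM (median 219) in treated libraries. In treated tumors 5 of 6 libraries were below the lowest control library, with a log2 fold change of -0.54 (SE 0.18; edgeR adjusted p = 0.0637). Tcf7 had 46.6, 52.0, 42.3 and 43.7 CPM in control libraries and 22.8 to 45.1 CPM (median 30.8) in treated libraries. Here too 5 of 6 treated libraries lay below the control range, but the log2 fold change of -0.46 did not pass (SE 0.29; edgeR adjusted p = 0.358).

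How many of these genes passed depended on which libraries entered the fit. When only the treated and control libraries were fitted, without the abscopal libraries that share the estimate of spread, 0 of the 10 passed: edgeR adjusted p was 0.0683 for Cd8a, 0.0641 for Cd247, 0.0904 for Cd8b1 and 0.0967 for Cd3d, while 451 genes of the table passed the same test. A single gene passed without treated replicate 2 (Cd8a) and without control replicate 3 or control replicate 4 (Cd247 each time), while 7 passed without treated replicate 5 and 8 without treated replicate 4. With 3 genes each, the other changes were without control replicate 1 (Cd3g, Cd8a and Cd8b1), control replicate 2 (Cd3d, Cd8a and Cd8b1) and treated replicate 1 or 6 (Cd247, Cd8a and Cd8b1). How many of all genes passed in the fits with a library left out is not given here. The 10 log2 fold changes stayed below 0 in all of these fits but the one without control replicate 1, where that of Cd4 was 0.0051.

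**Figure D2:**
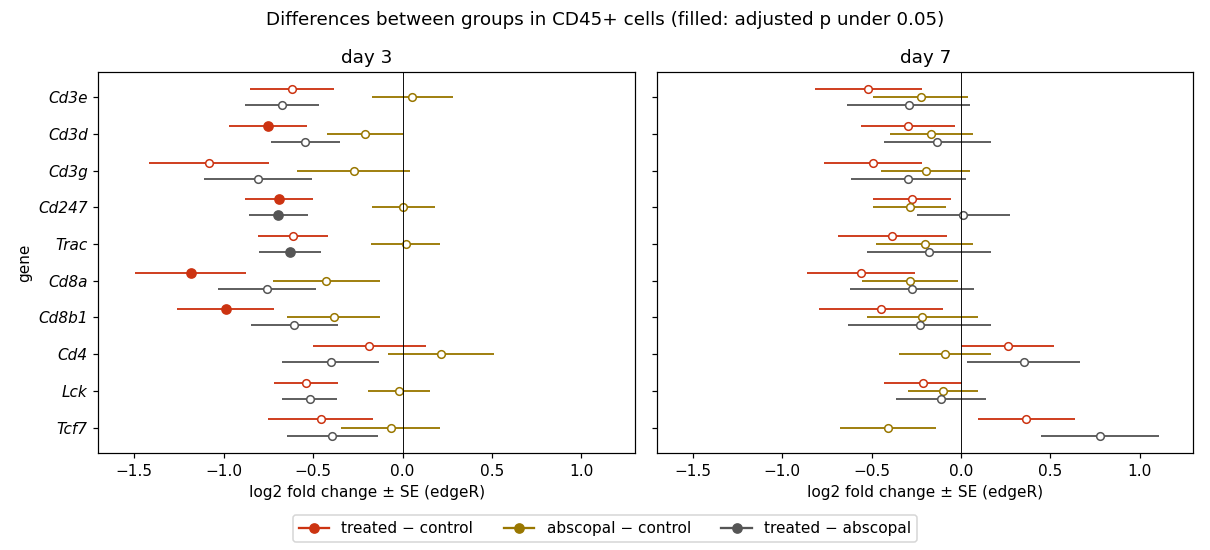
Log2 fold change ± SE of each gene in the 3 comparisons on day 3 (left) and day 7 (right), from edgeR, with filled points where the adjusted p was under 0.05. All filled points are on day 3 and below 0: Cd3d, Cd247, Cd8a and Cd8b1 for treated against control and Cd247 and Trac for treated against abscopal.

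In treated against abscopal tumors of day 3, Cd247 and Trac fell, and only Cd247 in a fit of these libraries alone. All 10 log2 fold changes were below 0, from -0.81 for Cd3g to -0.39 for Tcf7, with a median of -0.62 against -0.03 over all genes, of which 53.9% were below 0. The 2 that passed compare with 0.565% of all genes called lower. The treated libraries are the same as in the comparison with controls, so these values are not a second measurement.

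Cd247 had 33.9 to 56.4 CPM (median 50.1) in the 7 abscopal libraries, against 19.4 to 37.8 CPM in treated libraries. The ranges overlapped at the single abscopal replicate 1, and the log2 fold change was -0.69 (SE 0.17; edgeR adjusted p = 0.0149). Trac had 429 to 632 CPM (median 519) in abscopal libraries, and 5 of 6 treated libraries lay below the lowest of these, with a log2 fold change of -0.63 (SE 0.17; edgeR adjusted p = 0.0334). Lck had 281 to 331 CPM (median 305) in abscopal libraries and did not overlap with the treated libraries, which 0.263% of all genes did in this direction, yet its log2 fold change of -0.52 did not pass (edgeR adjusted p = 0.0535).

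Neither Cd8a (log2 fold change -0.76, edgeR adjusted p = 0.120) nor Cd8b1 (-0.61, adjusted p = 0.166) passed against abscopal tumors, nor did Cd3e (-0.67, adjusted p = 0.0571), Cd3g (-0.81, adjusted p = 0.136), Cd3d (-0.54, adjusted p = 0.112), Cd4 (-0.40, adjusted p = 0.471) or Tcf7 (-0.39, adjusted p = 0.451). Cd247 passed without any 1 of the 13 libraries and Trac did not: only Cd247 passed without treated replicate 1, 2, 3 or 6 or abscopal replicate 2, 3, 4, 5 or 6, and 5 of the genes passed without treated replicate 4 or 5.

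Between abscopal and control tumors, no gene of the whole table passed on day 3 in edgeR, while 796 had an unadjusted p under 0.05, and the background was 0% called. The log2 fold changes of the 10 genes ran from -0.43 for Cd8a to 0.22 for Cd4. All 7 abscopal libraries lay below the control mean for Cd8a (135 to 244 CPM, median 196) and for Cd8b1 (70.1 to 100 CPM, median 86.2), but 5 of 7 and 4 of 7 of them lay inside the control range. The log2 fold change of Cd8b1 was -0.38 with a 95% interval from -0.89 to 0.13 (edgeR adjusted p = 0.725), and that of Cd8a had an interval from -1.01 to 0.16 (adjusted p = 0.730). For Cd247, Trac, Lck, Cd3e and Tcf7 the log2 fold change was between -0.07 and 0.06. Melanoma markers summed to 173 to 398 CPM in control libraries and 198 to 2751 CPM in abscopal libraries, and their part in these values was not tested. Both comparisons with controls use the same 4 control libraries.

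Neutrophil markers moved with the day 3 difference. Of 8 neutrophil markers tested, 7 rose in treated against control tumors, where 6.21% of all genes were called higher, and the median of their log2 fold changes was 2.48. Hdc, which makes histamine, rose by 2.74 (SE 0.39; edgeR adjusted p = 0.000871), and Mmp9, a matrix protease of neutrophil granules, by 3.16 (SE 0.57; edgeR adjusted p = 0.00251). The summed CPM of the 9 markers was 564 to 2846 in control, 1090 to 3266 in abscopal and 1886 to 37660 in treated libraries, and no marker was at 0 throughout a group.

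Treated replicate 3 stood apart. It had the highest neutrophil sum, the lowest level among treated libraries for 7 of the 10 T cell genes and a summed level of these genes of 556 CPM, against 904 to 1430 CPM in the other treated libraries and 1630 to 2063 CPM in control libraries. Without it, 4 of the 10 genes again passed against control tumors and they were the same genes, with adjusted p from 0.0158 for Cd8b1 to 0.0489 for Cd3d in edgeR, and the log2 fold change of Cd8a was -0.99. Treated replicate 5 had a neutrophil sum of 1886 CPM, inside the control range. Its levels of Cd8a (154 CPM), Cd8b1 (77.4), Cd247 (37.8), Cd3d (198) and Lck (264) were below the lowest control library. Those of Cd3e (109 CPM), Trac (477), Cd3g (43.9) and Tcf7 (45.1) lay inside the control range, and Cd4 (24.4) was above it. Apart from these values, the part of the neutrophil RNA in the T cell result was not tested.

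**Figure D3:**
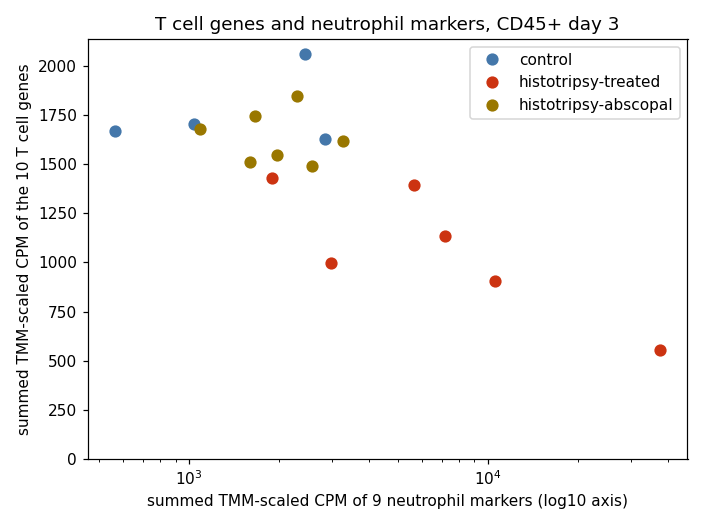
Summed TMM-scaled CPM of the 10 T cell genes (vertical) against that of 9 neutrophil markers (horizontal, log10 axis) in each CD45+ library of day 3. Treated libraries lie between 556 and 1430 on the vertical axis and the controls between 1630 and 2063, while the neutrophil sum of treated libraries runs from 1886 to 37660.

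The rest of the receptor pathway was taken from hand-written lists. Of the other receptor chains, 6 were in the table and 5 were tested on day 3. All 5 had a log2 fold change below 0 in treated against control tumors, as 50.8% of all genes did. Of these 5, 1 fell, where 1.59% of all genes did. It was Trbc1, a beta constant region, at 148 ± 57.6 CPM (SD, n = 6) against 304 ± 90.1 (SD, n = 4), with a log2 fold change of -1.04 (SE 0.28; edgeR adjusted p = 0.0237). Trbc1 and Trbc2 are near-identical, so how reads were shared between them is uncertain.

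Of 32 proximal signalling genes, 2 fell, where 1.59% of all genes did, and 1 rose, where 6.21% did. Their median log2 fold change was -0.18. Themis, an adaptor of the receptor pathway, fell by 0.94 on the log2 scale (SE 0.26; edgeR adjusted p = 0.0308), and Rasgrp1, an exchange factor that activates Ras, had a log2 fold change of -0.67 (SE 0.18; edgeR adjusted p = 0.0233). Pag1, an adaptor that recruits an inhibitor of Src kinases, rose by 1.01 (SE 0.29; edgeR adjusted p = 0.0358). Against abscopal tumors 3 of the 32 fell, where 0.565% of all genes did: Rasgrp1 (log2 fold change -0.55, SE 0.16), the Src-family kinase gene Fyn (log2 fold change -0.47, edgeR adjusted p = 0.0403) and Ubash3a, which encodes a negative regulator of the pathway (-0.65, adjusted p = 0.0440). None of these 3 passed in the fit of treated and abscopal libraries alone (edgeR adjusted p = 0.0819, 0.0739 and 0.0779), and they failed in 10, 9 and 11 of the 13 fits with a library left out.

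Of 16 costimulatory and other T cell surface genes, 3 fell against control tumors, where 1.59% of all genes did, and 4 against abscopal tumors, where 0.565% did. Cd226, an activating receptor, had 22.8 ± 5.29 CPM in treated (SD, n = 6) and 46.8 ± 6.25 CPM in control libraries (SD, n = 4), which did not overlap, with a log2 fold change of -1.03 (SE 0.17; edgeR adjusted p = 0.00165). Cd27, a receptor of the tumor necrosis factor family, fell by 0.71 on the log2 scale (SE 0.19; edgeR adjusted p = 0.0213), also without overlap, and Cd96 fell by 0.71 (SE 0.21; edgeR adjusted p = 0.0386). All of Cd226, Cd27 and Cd96 also passed against abscopal tumors, with log2 fold changes of -0.56, -0.69 and -0.74 and edgeR adjusted p of 0.0392, 0.0131 and 0.0187. Cd226 did not pass in the fit of treated and abscopal libraries alone (edgeR adjusted p = 0.0739) or in 9 of the 13 fits with a library left out.

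Of 16 genes of homing and transcription factors, 2 fell in treated against control tumors and 1 rose, beside 1.59% and 6.21% of all genes. Tox, a factor of exhausted and developing T cells, had 79.4 ± 36.8 CPM in treated and 169 ± 10.3 CPM in control libraries without overlap, a log2 fold change of -1.08 (SE 0.24; edgeR adjusted p = 0.00908). Bcl11b, a T lineage factor, fell by 0.53 on the log2 scale (SE 0.16; edgeR adjusted p = 0.0426), with a log2 fold change of -0.70 against abscopal tumors (SE 0.14; edgeR adjusted p = 0.00416). Klf2, a homing factor that many leukocytes and endothelial cells make, rose by 1.10 (SE 0.33; edgeR adjusted p = 0.0460). In the fit of treated and control libraries alone, Themis, Rasgrp1, Pag1, Cd27, Cd96, Bcl11b and Klf2 no longer passed (adjusted p from 0.059 to 0.0981), and Trbc1, Cd226 and Tox did.

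Markers of other leukocytes were counted in treated against control tumors of day 3, where 1.59% of all genes fell and 50.8% were below 0. Of 11 NK cell markers 1 fell, Klrd1, which CD8+ T cells also make (log2 fold change -1.30, SE 0.33; edgeR adjusted p = 0.0186), and 8 of 11 were below 0. Of 6 plasmacytoid dendritic cell markers 2 fell, Ccr9 with a log2 fold change of -1.26 (SE 0.30; edgeR adjusted p = 0.0137) and Siglech with -1.16 (SE 0.35; edgeR adjusted p = 0.0447). Siglech did not pass in the fit of treated and control libraries alone (edgeR adjusted p = 0.0512). None of 7 B cell, 7 type 1 conventional dendritic cell, 12 monocyte and macrophage or 6 melanoma markers passed in edgeR against control, with 0, 1, 1 and 0 of them at an unadjusted p under 0.05. Against abscopal tumors, the macrophage mannose receptor gene Mrc1 rose by 1.31 (SE 0.27; edgeR adjusted p = 0.00607). The parts of these cells in the T cell result were not tested.

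On day 7, no gene of the table passed in any of the 3 comparisons in edgeR (0% called of 10817 tested), while 341, 806 and 291 genes had an unadjusted p under 0.05 in treated against control, abscopal against control and treated against abscopal tumors. The T cell genes ranged widely among the 10 control libraries: Cd8a from 117 to 362 CPM (median 218), Cd3e from 63.9 to 204 CPM (median 129) and Trac from 239 to 803 CPM (median 481). The libraries of a group moved together in part. Control replicate 9 was lowest for 7 of the 10 genes, treated replicate 1 for 7 and abscopal replicate 1 for 8 within their groups.

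In treated against control tumors of day 7, the log2 fold changes ran from -0.56 for Cd8a to 0.37 for Tcf7, and 8 of 10 were below 0, with a median of -0.34, where 53% of all genes were below 0. Cd8a had 108, 169 and 184 CPM in the 3 treated libraries, of which 2 lay within the control range. Its 95% interval ran from -1.16 to 0.04 on the log2 scale (unadjusted edgeR p = 0.0794). Cd4 had 20.4, 28.4 and 16.4 CPM in treated libraries against 9.32 to 25.4 CPM (median 17.1) in control libraries, with a log2 fold change of 0.26 (SE 0.26; edgeR adjusted p = 0.9999). In abscopal against control tumors all 10 log2 fold changes were below 0, from -0.41 for Tcf7 to -0.09 for Cd4, as were 51.5% of all genes. None of the 10 had an unadjusted p under 0.05 in edgeR, which 7.45% of all genes had.

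Tcf7 took a different place on day 7. It had 68.0, 65.1 and 67.2 CPM in the 3 treated libraries, 54.5, 35.9, 36.8 and 23.6 CPM in the 4 abscopal libraries and 23.1 to 88.7 CPM (median 48.95) in the 10 control libraries. Every treated library was above every abscopal library, as was the case for 2.06% of all genes, with a log2 fold change of 0.78 (SE 0.33; unadjusted edgeR p = 0.0277, adjusted p = 0.9997). It was the only gene of the 10 with an unadjusted p under 0.05 in this comparison, where 2.69% of all genes had one. Against control tumors the treated values lay inside the range, with a log2 fold change of 0.37 (SE 0.27; edgeR adjusted p = 0.9999). With 3 treated libraries this stands on few samples.

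Whether a difference changed between days was tested with an interaction term on 11251 genes, with the libraries of days 3 and 7 fitted together. Treated against control, 0 of the 10 genes passed, where 2.68% of all genes did (edgeR), and all 10 had a difference that was higher on day 7 than on day 3, by 0.13 for Cd3e to 0.85 for Tcf7 on the log2 scale. For Tcf7 the unadjusted p was 0.0532 (edgeR adjusted p = 0.321), and for Cd8a the interaction was 0.66 (SE 0.45; edgeR adjusted p = 0.504). Treated against abscopal, 0 of 10 passed as well (0.0711% of all genes), with the largest values for Tcf7 (1.19, SE 0.45; edgeR adjusted p = 0.300), Cd4 (0.77, SE 0.44; edgeR adjusted p = 0.539) and Cd247 (0.72, SE 0.31; edgeR adjusted p = 0.361). Tcf7 and Cd247 were the only genes of the 10 with an unadjusted p under 0.05, where 10.6% of all genes had one. In abscopal against control tumors 0 of 10 and 0% of all genes passed, with 729 genes at an unadjusted p under 0.05. The lower Cd8a, Cd8b1, Cd247 and Cd3d of day 3 were thus not shown to differ from day 7.

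The balance of the T cell genes was read as ratios of counts within a library, which do not depend on how libraries are scaled. There were 18 tests of a ratio in a two-sided exact permutation test, and none passed after Benjamini-Hochberg adjustment. The Cd8a to Cd3e ratio on day 3 was 1.498, 2.105, 2.058 and 2.296 in control, 0.681 to 1.67 in treated and 1.06 to 1.79 in abscopal libraries. Thus 3 of 4 control libraries were above every other library of that day. The mean log2 ratio was 0.64 lower in treated tumors (exact permutation p = 0.0286, adjusted p = 0.257) and 0.47 lower in abscopal tumors (exact permutation p = 0.0242, adjusted p = 0.257), with the same control libraries in both.

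The Cd8a to Cd4 ratio overlapped widely. On day 3 it was 7.15, 13.7, 30.2 and 20.1 in control and 2.48 to 26.8 in treated libraries (exact permutation p = 0.181, adjusted p = 0.651). On day 7 it was 5.24, 5.87 and 11.1 in treated and 6.45 to 29.9 in control libraries, a mean log2 ratio lower by 0.86 (exact permutation p = 0.0699, adjusted p = 0.315). The Cd4 to Cd3e ratio of day 7 was 0.307, 0.247 and 0.179 in treated and 0.0574 to 0.231 in control libraries, a mean log2 ratio higher by 0.82 (exact permutation p = 0.0559, adjusted p = 0.315). For 3 against 4 libraries the smallest p possible was 0.0286, and for the other designs it was 0.00476 or less.

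**Figure D4:**
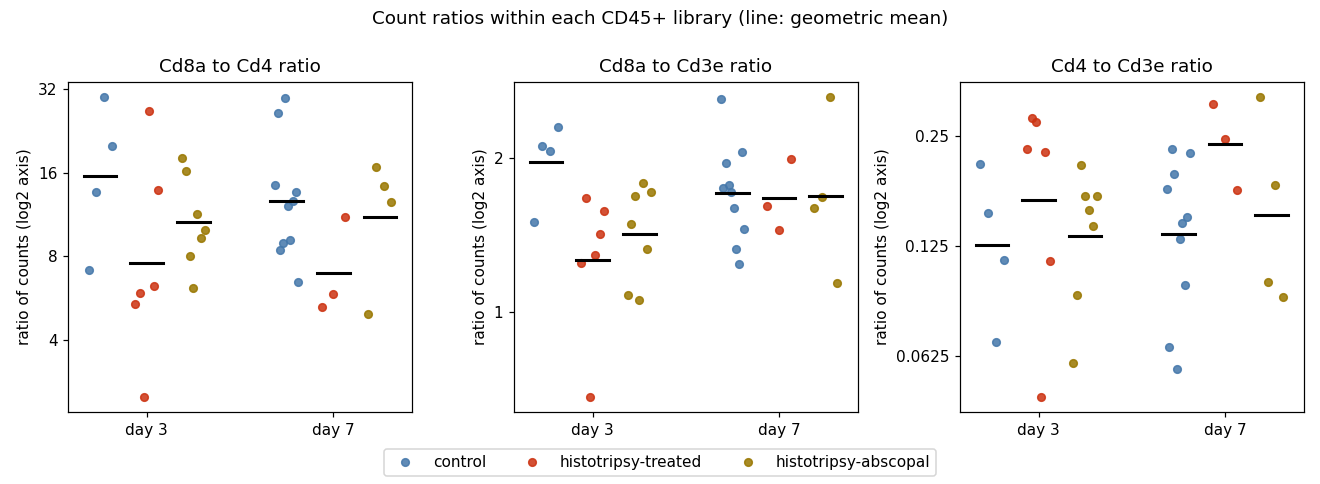
Ratio of counts of Cd8a to Cd4, Cd8a to Cd3e and Cd4 to Cd3e within each CD45+ library (vertical, log2 axis), with the geometric mean of each group as a line. Groups overlap throughout, and 3 of 4 control libraries of day 3 have a Cd8a to Cd3e ratio above 2, higher than all treated and abscopal libraries of that day.

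Among libraries, the genes varied with Cd3e to different degrees. After removal of the mean of each group and day, Pearson's r of log2 CPM over the 34 libraries was 0.91 between Cd3e and Cd3d, 0.87 with Trac, 0.86 with Lck, 0.85 with Cd8b1 and 0.79 with Cd8a. It was 0.62 with Cd3g, 0.37 with Cd247, -0.16 with Cd4 and -0.43 with Tcf7. Values of a library share its depth and its sort, treated and abscopal libraries may share a mouse, and Cd4 and Cd3g have low counts, so these correlations are a description without a test.

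Of 8230 genes with a mean of at least 10 CPM, those most like Cd3e were Cd3d, Zap70 (0.91), which encodes the kinase that docks on phosphorylated receptor chains, Trac, Lck and Rcn1 (0.86). Those most like Cd8a were Cd8b1 (0.95), the inhibitory receptor gene Pdcd1 (0.94), the perforin gene Prf1 (0.93), Cst7 (0.92) and Themis (0.90). For Cd4 the values were lower: Tspan13 (0.70), Sesn3 (0.69), Dpp4 (0.68), H2-Q7 (0.67) and Tcf7 (0.67). Cd8a and Cd4 themselves had an r of -0.08.

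**Figure D5:**
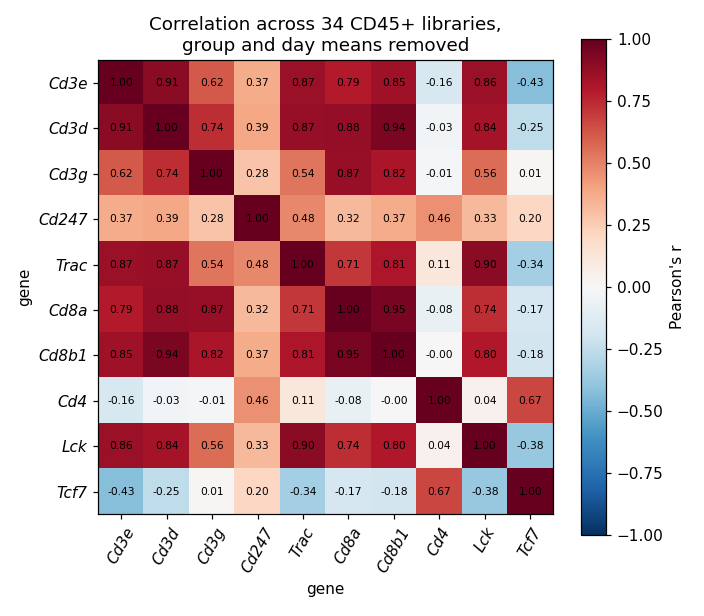
Pearson's r between each pair of the 10 genes across the 34 CD45+ libraries, after removal of group and day means (color scale from -1 to 1). Cd3e, Cd3d, Trac, Lck, Cd8a and Cd8b1 form a block of r from 0.71 to 0.95, and Cd4 and Tcf7 pair with each other at 0.67.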

How the data were processed

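RNA of flow-sorted cells was sequenced as QuantSeq libraries. The authors trimmed reads with Trim Galore 0.5.0, aligned them with STAR 2.6.0 to GRCm38, collapsed unique molecular identifiers, counted reads per gene with featureCounts and deposited raw counts, without normalization, in a table per fraction and day. Collapsed counts stand for molecules, so PCR copies weigh little, but QuantSeq reads come from transcript ends. A nameless line equal to 100% of the column totals was left out, and 0 columns had no sample. No pair of CD45+ libraries of a group agreed within sampling noise (smallest chi-square per degree of freedom 2.35).

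Genes were tested with edgeR 4.0.16 (R 4.3.3; TMM, filterByExpr with minimum count 10, quasi-likelihood, Benjamini-Hochberg at 0.05) in a fit of the 3 groups of a day, and checked on simulated data. Ratios used a pseudocount of 0.5 counts, and correlations a pseudocount of 1 CPM. Alternatives were library totals, DESeq2 1.42.0, limma-voom (limma 3.58.1), no filter, the compared groups alone, deeper libraries, libraries left out and a replicate block. The members and lists were chosen with earlier results of these data known. Named genes were all 10 members, up to 3 called genes per list and comparison with the smallest p, and the 5 genes most like Cd3e, Cd8a and Cd4. Coordinates are from GENCODE for GRCm38.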

Additional observations from a re-analysis of the deposited data

Results flagged for a closer look

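Cd3g in the CD45+ day 7 abscopal replicate 1 was 28.4 CPM, far below the other 3 libraries of its group, which lay between 54.4 and 56.6 CPM. Its gap to the nearest library was 0.921 of the group's range (n = 4). Of 50 groups looked at in this way, chance marks about 1 in 20.

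Tcf7 lay on opposite sides of the control mean on the 2 days, and its difference passed on neither: all 6 treated libraries of day 3 were below the control mean of that day, and all 3 treated libraries of day 7 were above theirs. The difference between the days, tested as an interaction, was 0.85 on the log2 scale and did not pass (edgeR adjusted p = 0.321).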

How the results depend on the processing

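Of the 10 genes, the number that passed on day 3 in treated against control tumors was 4 in the reported fit and with limma-voom, 8 with library totals, 7 with DESeq2, 8 without a filter on low counts, 0 in a fit of the compared groups alone and 1 to 8 with a library left out. In treated against abscopal tumors it was 2 in the reported fit and with library totals, 4 with DESeq2 and limma-voom, 8 without a filter, 1 in a fit of the compared groups alone and 1 to 5 with a library left out. In the fits of the compared groups alone, 451 genes of the table passed against control and 365 against abscopal tumors. For the other alternatives the share of all genes that passed is not given here. Whether more genes passed in general under them cannot be read from these counts. The causes were not tested. With library totals, log2 fold changes over all genes in treated against control tumors had a median of -0.22 in place of -0.01, against which the fold changes of that setting should be read. For the interaction in treated against abscopal tumors, 1 gene (Tcf7) passed without a filter and 0 otherwise. In the other comparisons the number was 0 under every alternative run. Among the list genes, Pag1 and Klf2 did not pass with library totals or limma-voom, nor, without a filter, Bcl11b against control or Fyn and Cd226 against abscopal tumors. With 1 of the 10 libraries left out in turn, Cd226, Tox, Ccr9, Hdc, Mmp9 and Il1r2 passed against control tumors in every fit, while Cd27 and Trbc1 failed in 2, Klrd1 and Rasgrp1 in 3, Themis, Bcl11b and Pag1 in 6, Klf2 in 7 and Cd96 and Siglech in 8. Against abscopal tumors, Cd96 failed in 2 of 13.

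Whether replicate numbers shared by groups mark libraries of the same mouse could not be decided. In none of the 6 pairs of groups did every pair of same-numbered libraries have deviations that correlated over 0.1. Between treated and abscopal libraries of day 3, the median r was 0.10 for the same number and -0.04 for other numbers. On day 7 these medians were 0.19 and -0.07. The replicate block treats a number as shared between groups, although control libraries came from other mice than the ablated ones. In the sample order, day 3 treated libraries from replicate 3 on stand beside abscopal libraries of another number. The block therefore does not stand for a pairing by mouse. With the replicate block, 6 of the 10 genes passed in treated against control tumors of day 3 and 2 in treated against abscopal tumors, 0 elsewhere, and the day 7 log2 fold change of Cd4 turned from 0.26 to -0.041. Under it 10 calls of list genes were lost: Pag1, Cd96, Klf2, Bcl11b and Siglech against control and Fyn, Ubash3a, Rasgrp1, Cd96 and Cd226 against abscopal tumors.

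Small differences changed sign. Without control replicate 1, the day 3 log2 fold change of Cd4 in treated against control tumors was 0.0051 (from -0.44 to 0.0051 with a library left out). On day 7, the Cd8a to Cd3e log2 ratio difference was 0.013 (treated against control) and 0.11 (abscopal against control) in libraries of at least 1000000 counts. With a library left out it ran from -0.16 to 0.066, from -0.24 to 0.17 and, treated against abscopal, from -0.20 to 0.20. It ran from -0.25 to 0.011 in treated against abscopal tumors of day 3. The Cd4 to Cd3e difference in abscopal against control tumors ran from -0.21 to 0.33 on day 3 and -0.18 to 0.42 on day 7, and the Cd8a to Cd4 difference on day 7 from -0.40 to 0.19. On day 3 no library had fewer than 1000000 counts, so that alternative gave no value there. Depth limits Cd4 most, at 9 to 57 counts per CD45+ library.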
